A study of Mus musculus with 16 samples.

Results

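The 32 genes described here encode enzymes and carriers of fatty acid oxidation and other targets of the fatty acid receptor PPARα. They were taken from a liver count table by gene symbol: each symbol had 1 row among the table's 41585 rows. All 32 passed the filter on low counts that left 13470 genes for testing. By place and role they were 2 regulators, 15 mitochondrial genes, 7 peroxisomal genes, 4 acyl-CoA thioesterases, 1 ketone body gene and 3 other PPARα targets. Liver RNA was sequenced from C57BL/6 mice of the genotypes Cyp2b-null and hCYP2B6-Tg, females and males, all fed for 16 weeks on a diet with 60% fat. The 4 combinations of genotype and sex were Cyp2b-null female, hCYP2B6-Tg female, Cyp2b-null male and hCYP2B6-Tg male, each with 4 libraries, and no group on another diet was analysed here. The study asked how the human drug-metabolising P450 CYP2B6 bears on diet-induced obesity. Not given in the sources used here are the deleted Cyp2b genes, the promoter of the human transgene, whether hCYP2B6-Tg mice also lack mouse Cyp2b genes, and the animals' age, feeding state and hour of collection. The labels do not say that each library came from a separate animal, so p-values measure only how these libraries spread, and that spread may be technical.

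PPARα is a nuclear receptor that binds fatty acids, pairs with RXR and switches on the genes of fat burning in the fasted or lipid-loaded liver. Long-chain acyl-CoA enters mitochondria on carnitine and is shortened there by dehydrogenation, hydration, a further dehydrogenation and thiolysis, and the acetyl-CoA formed can leave the liver as ketone bodies. Very-long-chain and branched fatty acids are shortened first in peroxisomes, which use their own set of enzymes. Rodent liver is known for a strong peroxisomal response to PPARα agonists, and many liver genes of lipid metabolism differ between male and female mice.

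In these livers some of the members differed by sex, and none passed the test by genotype. By edgeR's quasi-likelihood test with Benjamini-Hochberg adjustment over all 13470 genes, 0 of 32 passed for hCYP2B6-Tg against Cyp2b-null livers in either sex. Between females and males, 5 of 32 differed in Cyp2b-null livers, beside 7.52% of all genes tested, and 7 of 32 differed in hCYP2B6-Tg livers, beside 10.3%. The peroxisomal thiolase gene Acaa1b, the peroxisomal bifunctional enzyme gene Hsd17b4 and the mitochondrial thiolase gene Acaa2 were lower in females of both genotypes, and the thioesterase gene Acot3 was higher. Acaa1a was called lower in Cyp2b-null females, and Ppara, Cpt1a and Pex11a in hCYP2B6-Tg females. The plot of levels relative to each gene's mean shows these rows beside the remaining members.

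**Figure D1:**
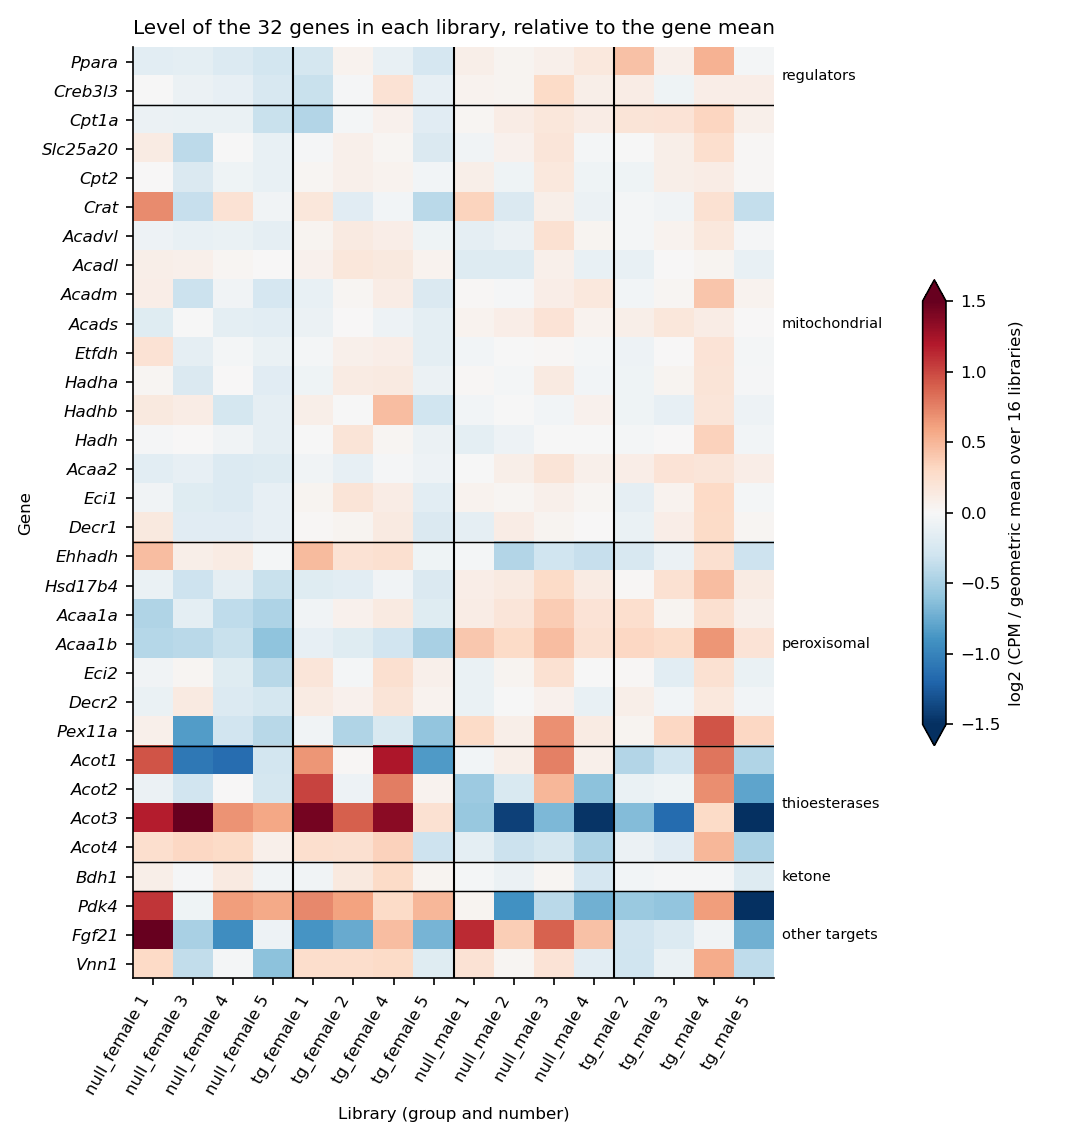
Level of each of the 32 genes (rows, ordered by role) in each of the 16 libraries (columns, by group and title number), as log2 of CPM (counts relative to the scaled library total) over the gene's geometric mean across libraries. Colours stop at 1.5 in either direction. Acaa1b runs from 714 CPM (null_female 5) to 1728 CPM (tg_male 4), Acot3 from 16.9 CPM (tg_male 5) to 235 CPM (null_female 3), and most mitochondrial rows are pale.

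Library totals ran from 5584587 to 9672708 counts, and the members together took 0.706% to 1.04% of a library's counts. At these totals a count of 0 would allow up to 0.310 to 0.537 CPM, taking 3 counts as the limit, which covers counting error only. The lowest member value was 1.96 CPM, for Fgf21 in null_female 4. The hepatocyte markers Alb, Apoa1, Ttr, Serpina1c, Cps1 and Tat summed to 97892 to 129078 CPM, as the label of liver has it. The sum ran from 105985 to 129078 CPM in Cyp2b-null females, above the 97892 to 104243 CPM of the males, with Alb called higher and Serpina1c lower in females by edgeR. In hCYP2B6-Tg livers it ran from 103981 to 124044 CPM in females and from 103772 to 111890 CPM in males, with Ttr and Serpina1c called lower in females. Of the 6 muscle markers only Ckm, and of the 5 pancreas markers only Cpa1, Pnlip and Clps, were at 0 in all 16 libraries. Fat cell markers summed to at most 3.45 CPM (null_male 4) and muscle markers to at most 0.538 CPM. Pancreas markers summed to 22.9 CPM in null_male 4 and to at most 0.135 CPM in the other libraries. Endothelial markers summed to 158 to 264 CPM over the 16 libraries, stellate cell markers to 198 to 298 CPM and bile duct markers to 20.6 to 98.1 CPM, with null_male 4 the highest and 56.8 CPM the next value. Kupffer cell markers summed to 326 to 554 CPM in Cyp2b-null females against 236 to 369 CPM in Cyp2b-null males, and 2 of 6, Clec4f and Vsig4, were called higher in those females by edgeR. In hCYP2B6-Tg livers the Kupffer sums were 344 to 466 CPM in females and 263 to 334 CPM in males, with Vsig4 called. The part of these cell markers in the sex differences given next was not tested. In bulk RNA a lower share of hepatocytes and less of a transcript in each hepatocyte cannot be told apart.

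Levels among the members, compared per length as RPKM (CPM per kilobase of exon, mean ± SD over 16 libraries), spanned from Acaa1b at 668 ± 182 to Pdk4 at 2.84 ± 1.28. The order was led by 2 thiolase genes, Acaa1b of the peroxisome and then Acaa2 of the mitochondrion at 527 ± 50.5. The other peroxisomal thiolase gene, Acaa1a, stood lower at 101 ± 17.1 RPKM. Hadh, the mitochondrial 3-hydroxyacyl-CoA dehydrogenase for short and medium chains, followed at 246 ± 21.7 RPKM, and the medium-chain acyl-CoA dehydrogenase gene Acadm at 190 ± 23.8. Hsd17b4 (180 ± 28.6) and Ehhadh (142.5 ± 28.3 RPKM), the 2 bifunctional enzymes of peroxisomes, came next. The receptor gene Ppara (114 ± 19.9) and Creb3l3 (112 ± 12.3 RPKM), a liver transcription factor released from the endoplasmic reticulum, stood in mid-order next to Cpt1a (117 ± 15.8). The low end held the thioesterases Acot1 (13.6 ± 6.81), Acot4 (10.8 ± 2.33) and Acot2 (4.59 ± 1.77), the hormone gene Fgf21 (4.59 ± 3.07) and Pdk4, an inhibitor of pyruvate oxidation. Of the 31 neighbouring pairs in this order, 27 were not apart by more than their SDs, which include the spread between groups. The 4 steps that were wider lay between Acaa2 and Hadh, Hadh and Acadm, Cpt2 (66.2 ± 4.37) and Vnn1 (50.2 ± 10.9), and Acot4 and Acot2.

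Hadha and Hadhb encode the α and β subunits of the mitochondrial trifunctional protein and are transcribed away from each other, with RefSeq start sites 273 bases apart on chromosome 5 (GRCm38.p6). Their RPKM values were unequal: 106 ± 8.13 for Hadha and 14.5 ± 1.92 for Hadhb. Of the 50-base stretches of Hadhb transcripts, 18.1% also occur in the annotated locus Gm13910, and its part in the low Hadhb value was not tested. Shared sequence also touches other members, and the submitters' notes give neither the strand setting nor the handling of reads with several matches. Acaa1b shared 30.5% of its 50-base stretches with Acaa1a, and Acaa1a shared 12.4% with Acaa1b. The thioesterases Acot1, Acot2, Acot3 and Acot4 lie in one cluster on chromosome 12 and had 13.4% to 27.7% of their stretches in common with other transcripts. Acadvl shared 26.9% with Dvl2 and Bdh1 11.1% with Gm15743, each on the opposite strand. Values of single genes within these pairs are therefore uncertain.

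Promoter windows of 300 bases, from 250 before to 50 after a listed start site (GRCm38.p6), were found for 27 members in 30 windows. For Acaa1a, Cpt1a, Ppara, Acot4, Creb3l3 and Eci2 the window lay inside the gene's RefSeq span rather than at its end. The matches in these windows therefore belong to a start site within the gene, and the outermost start was not searched there. No window was listed for Hsd17b4, Acaa2, Vnn1, Decr1 and Crat. Nuclear receptors bind the hexamer AGGTCA, and PPARα with RXR binds 2 of them as a direct repeat with a 1-base spacer, called direct repeat 1. Searched on both strands, the full repeat was in 0 of 30 windows (0.0396% of 32851 windows of this length) and the looser repeat of AGGNCA with the same spacer in 0 (0.381%). The single hexamer was in 7 of 30 windows, of 6 genes (Acadm, Acadvl, Acot3, Acot4, Cpt1a and Creb3l3), beside 16.3% of all windows. The CCAAT box was in 14 of 30 windows, of 13 genes, beside 37.4% of all windows, and the STAT5 element TTCNNNGAA in 3 (Cpt2, Hadha and Hadhb), beside 8.3%. The Hadha and Hadhb windows share 228 bases, so their match is the same site. These matches are letters in a window and say nothing of binding. Windows of 4 genes that differed by sex are shown, chosen for a contrast in these motifs. Those of the peroxisomal thiolases Acaa1b and Acaa1a hold CCAAT boxes and no hexamer, and those of Acot3 and Cpt1a hold both. The contrast does not follow the direction of the sex calls, since Cpt1a was called lower in females, like the thiolases, and Acot3 higher. Capitals mark AGGTCA or its reverse TGACCT and CCAAT or its reverse ATTGG. All run 5′ to 3′ on the gene's strand, at chr9:119157044-119157343 (minus strand) for Acaa1b, chr9:119341044-119341343 (plus) for Acaa1a, chr12:84051894-84052193 (plus) for Acot3 and chr19:3323051-3323350 (plus) for Cpt1a.
Acaa1b: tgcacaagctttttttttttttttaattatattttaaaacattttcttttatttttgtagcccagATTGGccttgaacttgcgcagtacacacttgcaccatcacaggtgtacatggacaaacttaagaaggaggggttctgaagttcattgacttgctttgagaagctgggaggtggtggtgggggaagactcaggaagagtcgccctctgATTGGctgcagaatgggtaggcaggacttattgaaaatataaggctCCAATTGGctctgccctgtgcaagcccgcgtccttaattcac
Acaa1a: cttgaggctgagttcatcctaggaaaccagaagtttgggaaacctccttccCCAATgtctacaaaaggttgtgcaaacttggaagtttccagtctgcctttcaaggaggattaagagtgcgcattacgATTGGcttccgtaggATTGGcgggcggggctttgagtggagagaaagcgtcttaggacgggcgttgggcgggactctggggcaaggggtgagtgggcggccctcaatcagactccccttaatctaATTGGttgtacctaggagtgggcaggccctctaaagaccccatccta
Acot3: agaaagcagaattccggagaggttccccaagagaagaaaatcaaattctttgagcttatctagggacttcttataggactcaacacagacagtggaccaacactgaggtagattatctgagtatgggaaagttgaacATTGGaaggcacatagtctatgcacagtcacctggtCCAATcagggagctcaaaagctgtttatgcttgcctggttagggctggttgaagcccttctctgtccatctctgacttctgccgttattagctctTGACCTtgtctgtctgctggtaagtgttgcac
Cpt1a: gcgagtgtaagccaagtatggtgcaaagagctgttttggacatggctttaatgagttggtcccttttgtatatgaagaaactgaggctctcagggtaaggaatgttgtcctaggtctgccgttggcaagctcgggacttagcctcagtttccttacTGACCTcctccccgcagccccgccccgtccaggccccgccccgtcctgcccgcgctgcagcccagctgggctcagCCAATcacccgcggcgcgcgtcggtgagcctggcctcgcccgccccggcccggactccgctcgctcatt
The Acaa1b and Acaa1a windows each hold 4 CCAAT matches, of which a pair in Acaa1b overlaps just after the start site. The windows of Pex11a and Ppara, which also differed by sex, hold neither motif.

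The comparison of females with males asked which members differ by sex within a genotype. In Cyp2b-null livers 4 members were lower in females (Acaa1b, Acaa1a, Hsd17b4 and Acaa2) and 1 was higher (Acot3), against 3.95% of all genes lower and 3.57% higher. In hCYP2B6-Tg livers 6 members were lower in females (Acaa1b, Hsd17b4, Acaa2, Ppara, Cpt1a and Pex11a) and 1 was higher (Acot3), against 5.56% and 4.69% of all genes. Scaled by library totals without TMM, 56.1% of all genes called in hCYP2B6-Tg livers were higher in females, against 45.8% with TMM. The lists had 4 members in common, which is 80% of the Cyp2b-null list and 57.1% of the hCYP2B6-Tg list, and 8 members were in either. Over all 32 members the median log2 fold change, female minus male, was -0.13 in Cyp2b-null and -0.019 in hCYP2B6-Tg livers, beside 0.00455 and 0.0163 for all genes tested. The counts depended on single libraries. In Cyp2b-null livers, 9 members passed without tg_male 4 (1046 of all genes, against 1013 with every library) and 8 without tg_male 5 (974 of all genes), libraries that belong to neither group compared and enter through the shared fit. In hCYP2B6-Tg livers, 4 passed without tg_female 1, tg_female 2, tg_female 4, tg_female 5 or tg_male 5 (981 to 1282 of all genes, against 1381), and 3 without tg_male 3 (1006 of all genes). Hsd17b4, Acaa1a and Acaa1b in Cyp2b-null and Ppara, Hsd17b4 and Acaa1b in hCYP2B6-Tg livers passed with each of the 16 libraries left out in turn.

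**Figure D2:**
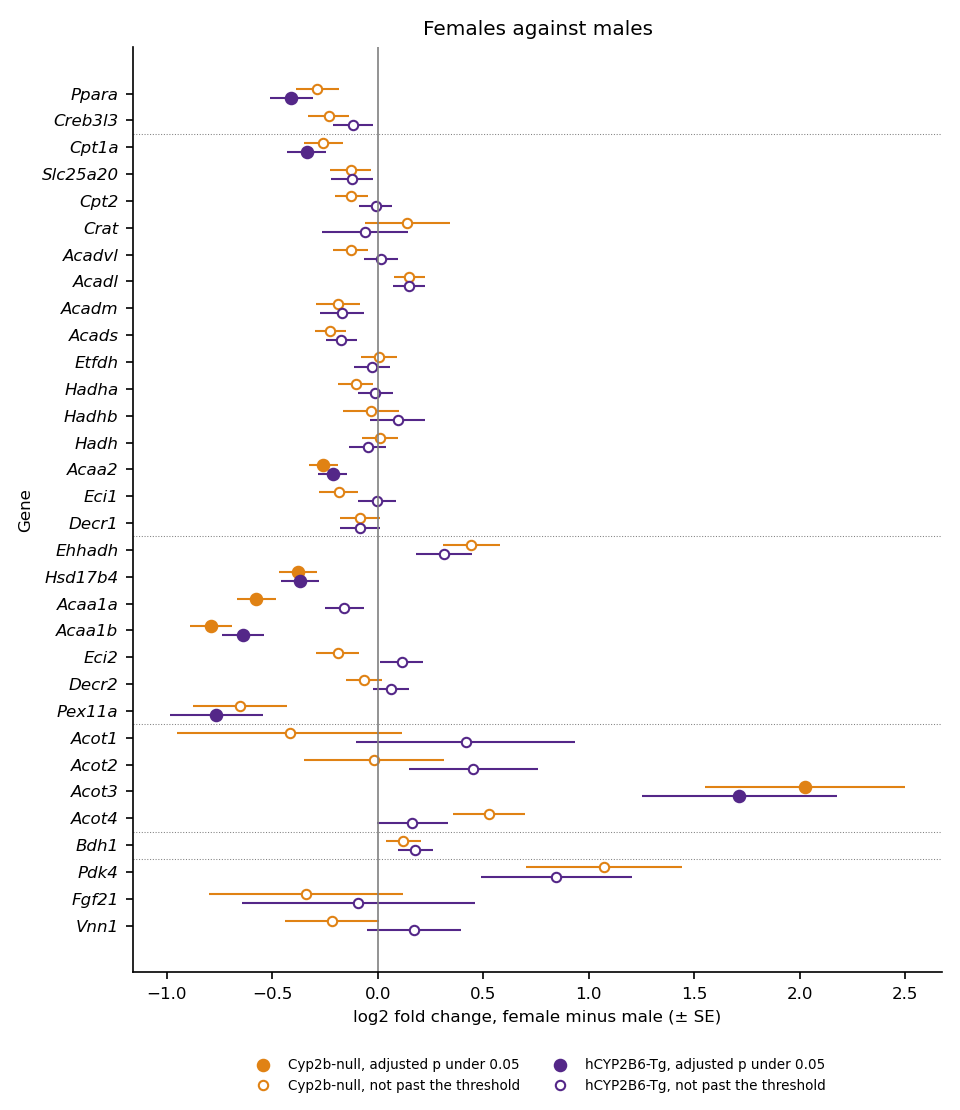
Estimated log2 fold change, female minus male, with its standard error for each of the 32 genes in Cyp2b-null and hCYP2B6-Tg livers, in order of role. Filled points passed an edgeR adjusted p of 0.05: 5 genes in Cyp2b-null and 7 in hCYP2B6-Tg livers, with Acot3 at 2.03 and 1.71 on the right and Acaa1b at -0.79 and -0.64 on the left.

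Of the 7 peroxisomal genes other than thioesterases, 3 were lower in females and 0 higher in each genotype, beside 3.95% lower and 3.57% higher of all genes in Cyp2b-null and 5.56% and 4.69% in hCYP2B6-Tg livers. With the peroxisomal thioesterase genes Acot3 and Acot4 counted in, 3 of 9 were lower and 1 higher in each genotype. Their inclusion moved the median log2 fold change from -0.38 to -0.19 in Cyp2b-null livers and from -0.16 to 0.065 in hCYP2B6-Tg livers. Acaa1b (chr9:119148043-119157093), one of the thiolases that release acetyl-CoA in the last step of peroxisomal oxidation, measured 808, 825, 861 and 714 CPM in Cyp2b-null females. In Cyp2b-null males it measured 1446, 1332, 1502 and 1273 CPM. Every male value was above every female value, and the log2 fold change was -0.79 ± 0.10 (edgeR adjusted p = 5.13e-06). In hCYP2B6-Tg livers Acaa1b was at 1002, 959.6, 889.9 and 779.6 CPM in females and at 1348, 1316, 1728 and 1257 CPM in males. The groups again did not overlap, with tg_male 4 far above the other males, and the log2 fold change was -0.64 ± 0.10 (edgeR adjusted p = 9.73e-05).

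The neighbouring thiolase gene Acaa1a (chr9:119341028-119350296) had 128, 159, 135 and 128 CPM in Cyp2b-null females against 190, 199, 229 and 202 CPM in Cyp2b-null males. These groups did not overlap, and the log2 fold change was -0.58 ± 0.09 (edgeR adjusted p = 0.000128). In hCYP2B6-Tg livers it had 170, 183, 194 and 155 CPM in females and 210, 181, 207 and 185 CPM in males. Here the groups overlapped, and the estimate of -0.16 ± 0.09 did not pass (edgeR adjusted p = 0.304). The 2 sex effects were 0.42 ± 0.13 apart on the log2 scale, which did not pass (adjusted p = 0.388), so the sex effect on Acaa1a is not shown to differ by genotype.

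Hsd17b4, the D-bifunctional enzyme that handles branched and very-long-chain acyl-CoA, had 446, 385, 437 and 380 CPM in Cyp2b-null females against 512, 527, 583 and 519 CPM in males. In hCYP2B6-Tg livers it had 421, 429, 463 and 413 CPM in females and 485, 558, 661 and 521 CPM in males. Males were above females in every pairing of libraries in both genotypes, with log2 fold changes of -0.38 ± 0.09 (edgeR adjusted p = 0.00808) and -0.37 ± 0.09 (adjusted p = 0.00841). Pex11a, which takes part in peroxisome division, had 80.0, 60.8, 71.0 and 55.0 CPM in hCYP2B6-Tg females and 85.8, 103, 160 and 103 CPM in hCYP2B6-Tg males. The groups did not overlap, tg_male 4 being the highest, and the log2 fold change was -0.77 ± 0.22 (edgeR adjusted p = 0.0408). The Pex11a call was lost without 9 of the 16 libraries (null_female 4 and 5, tg_female 2, 4 and 5, null_male 1, tg_male 3, 4 and 5; adjusted p 0.0525 to 0.116). Scaling without TMM and no filter on low counts ended the call too (adjusted p 0.0542 to 0.0856). In Cyp2b-null livers the Pex11a estimate was -0.65 ± 0.22 (adjusted p = 0.10). It came from 87.5, 46.6, 68.0 and 62.6 CPM in females and 101, 88.7, 134 and 90.9 CPM in males. The estimate passed there without null_female 1 or tg_male 4 (adjusted p 0.0331 to 0.0495). It also passed in 5 other settings, DESeq2 and limma voom among them (adjusted p 0.0049 to 0.0391).

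The other peroxisomal members did not pass in either genotype. Ehhadh, the L-bifunctional enzyme and a classic PPARα target, had its higher values in females: 576, 442, 455 and 407 CPM against 408, 307, 339 and 328 CPM in Cyp2b-null livers. The lowest female value lay just under the highest male value, and the log2 fold change was 0.44 ± 0.13 (edgeR adjusted p = 0.0510). Without tg_male 4 the Ehhadh estimate passed in both genotypes, and without null_female 5, tg_female 1, tg_female 5, null_male 1 or tg_male 5 it passed in Cyp2b-null livers (adjusted p 0.0177 to 0.0444 over these). It also passed there in 8 of the 13 other settings, DESeq2, limma voom and the replicate block among them (adjusted p 0.0015 to 0.048), so the Ehhadh call depends on the processing. In hCYP2B6-Tg livers Ehhadh had 582, 485, 491 and 400 CPM in females and 352, 393, 492 and 338 CPM in males (0.31 ± 0.13, adjusted p = 0.160, and 0.0330 without tg_male 4), with overlap through tg_female 5 and tg_male 4. The unadjusted p of Ehhadh was 0.00386 in Cyp2b-null and 0.0306 in hCYP2B6-Tg livers. Eci2, an enoyl-CoA isomerase for unsaturated chains, and Decr2, a peroxisomal dienoyl-CoA reductase, had estimates between -0.19 and 0.11 with adjusted p of 0.310 to 0.745. Added together, the 7 peroxisomal genes came to 2318 ± 179 CPM in Cyp2b-null females, 2576 ± 204 in hCYP2B6-Tg females, 3044 ± 197 in Cyp2b-null males and 3147 ± 426 CPM in hCYP2B6-Tg males (SD, n = 4), sums to which Acaa1b contributed the most.

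**Figure D3:**
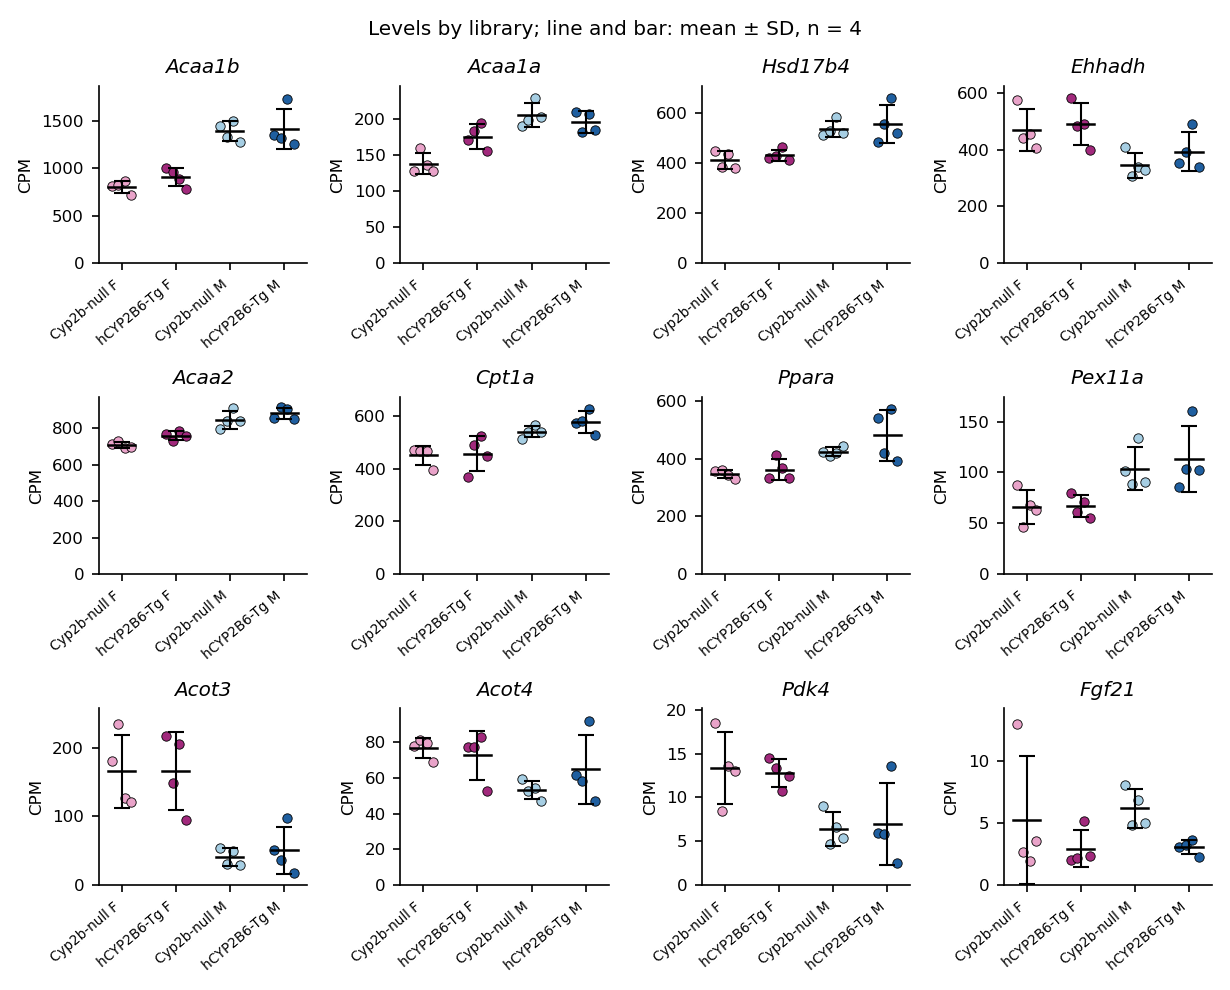
Level in CPM of 12 members in each library by group (F female, M male), with the mean and SD of the 4 libraries as a line and bar. Each vertical axis starts at 0. Acaa1b, Hsd17b4 and Acaa2 are apart between females and males in both genotypes, Acot3 is high in females, and the Fgf21 panel has 1 female library at 13.0 CPM.

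The 15 mitochondrial genes had small sex estimates, between -0.34 and 0.15 on the log2 scale. Called lower in females were 1 in Cyp2b-null livers, beside 3.95% of all genes, and 2 in hCYP2B6-Tg livers, beside 5.56%. Acaa2, the matrix thiolase, had 712, 733, 693 and 697 CPM in Cyp2b-null females against 795, 843, 911 and 839 CPM in Cyp2b-null males. In hCYP2B6-Tg livers it had 769, 730.3, 786 and 757 CPM in females and 856, 915, 905 and 852 CPM in males. The sexes did not overlap in either genotype, with log2 fold changes of -0.26 ± 0.07 (edgeR adjusted p = 0.0181) and -0.21 ± 0.07 (adjusted p = 0.0450). The Acaa2 call in Cyp2b-null livers was lost without null_female 4, null_female 5 or null_male 3 (adjusted p 0.0512 to 0.0861). In hCYP2B6-Tg livers it was lost without 11 of the 16 libraries (all 8 of that genotype, null_female 4, null_male 2 and null_male 4; adjusted p 0.0511 to 0.133). Of the 13 other settings, 2 ended the call in Cyp2b-null livers (adjusted p 0.0555 to 0.0559) and 8 ended it in hCYP2B6-Tg livers, the replicate block and scaling without TMM among them (adjusted p 0.0502 to 0.135).

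Cpt1a makes the acylcarnitine that enters mitochondria and sets the pace of the pathway. It had 369, 489.9, 523 and 446 CPM in hCYP2B6-Tg females and 572, 580.2, 627 and 528 CPM in hCYP2B6-Tg males. The groups did not overlap, and the log2 fold change was -0.34 ± 0.09 (edgeR adjusted p = 0.0203). The call was lost without tg_female 1, tg_female 5, tg_male 3 or tg_male 4 (adjusted p 0.0524 to 0.0739). Leaving out null_female 1 and tg_male 4, or these and null_female 3, also ended it (adjusted p 0.0629 to 0.0639). In Cyp2b-null livers Cpt1a had 470.3, 468, 468 and 396 CPM in females and 512, 540.3, 564 and 540.2 CPM in males. These groups did not overlap either, but the estimate of -0.26 ± 0.09 did not pass (edgeR adjusted p = 0.0980).

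Among the acyl-CoA dehydrogenases, which open each round of oxidation for chains of different length, Acads for short chains had -0.23 ± 0.07 in Cyp2b-null livers (edgeR adjusted p = 0.0635, and 0.0373 without null_female 3). By DESeq2 it passed there (adjusted p = 0.0243). Acads ran at 129.8 to 147 CPM in those females and 152 to 169 CPM in the males, which do not overlap, and had -0.17 in hCYP2B6-Tg livers (adjusted p = 0.151). Acadm for medium chains had -0.19 and -0.17, and Acadvl for very long chains -0.13 and 0.015, in Cyp2b-null and hCYP2B6-Tg livers. Acadl for long chains had 0.15 in both genotypes (adjusted p = 0.270 and 0.233), against the sign of Acads and Acadm. The carriers and transferases Slc25a20, Cpt2 and Crat, the electron carrier gene Etfdh, the trifunctional genes Hadha and Hadhb, Hadh, and the auxiliary enzymes for unsaturated chains Eci1 and Decr1 did not pass in either genotype, with estimates of -0.19 to 0.14. Summed levels of the 15 genes were 4026 ± 221 CPM in Cyp2b-null females, 4242 ± 260.1 in hCYP2B6-Tg females, 4392 ± 192 in Cyp2b-null males and 4570.3 ± 354 CPM in hCYP2B6-Tg males (SD, n = 4).

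Of the regulators, Ppara had 334, 413, 370.0 and 334 CPM in hCYP2B6-Tg females and 541, 419, 574 and 392 CPM in hCYP2B6-Tg males. The highest female value exceeded the lowest male value, and the males split into a higher and a lower pair. The log2 fold change was -0.41 ± 0.10 (edgeR adjusted p = 0.00989, with 0.00197 to 0.0484 as each library was left out). In Cyp2b-null livers Ppara had 358, 361, 345 and 331 CPM in females and 425, 409.7, 421 and 445 CPM in males. Those groups did not overlap, yet the estimate of -0.29 ± 0.10 did not pass (edgeR adjusted p = 0.0933). It passed in a fit of only the 2 groups (adjusted p = 0.0307). The Ppara sex effects of the genotypes were 0.12 ± 0.14 apart on the log2 scale, which did not pass (adjusted p = 0.889). Creb3l3, which acts with PPARα on fasting genes, had -0.23 ± 0.10 and -0.12 ± 0.10 and did not pass (adjusted p = 0.160 and 0.509).

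Acyl-CoA thioesterases split acyl-CoA into free acid and coenzyme A, and Acot3 and Acot4 do so in peroxisomes. Acot3 (chr12:84052144-84060400) gave the member estimates farthest from 0. It measured 182, 235, 128 and 120.4 CPM in Cyp2b-null females against 54.0, 30.4, 50.2 and 28.9 CPM in Cyp2b-null males. All females were above all males, and the log2 fold change was 2.03 ± 0.47 (edgeR adjusted p = 0.0199). In hCYP2B6-Tg livers Acot3 measured 218, 149.5, 206 and 94.2 CPM in females and 51.2, 36.0, 98.3 and 16.9 CPM in males. The highest male, tg_male 4, was just above the lowest female, tg_female 5, and the log2 fold change was 1.71 ± 0.46 (edgeR adjusted p = 0.0345). The Acot3 call was lost in Cyp2b-null livers without null_female 3, null_male 2 or null_male 4 (adjusted p 0.0529 to 0.0666). In hCYP2B6-Tg livers it was lost without tg_female 1, 2 or 4 or tg_male 2, 3 or 5 (adjusted p 0.0584 to 0.0993), though the estimates stayed at 1.42 to 2.28. The hCYP2B6-Tg call also ended with no filter on low counts and in a fit of only the 2 groups (adjusted p 0.0604 to 0.128). Leaving out null_female 1, null_female 3 and tg_male 4 ended the Cyp2b-null call (adjusted p = 0.0739).

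The other thioesterases did not pass. Acot4, the neighbour of Acot3, was at 68.8 to 81.1 CPM in Cyp2b-null females against 46.9 to 59.2 CPM in the males, which do not overlap (0.53 ± 0.17, edgeR adjusted p = 0.0740). It passed without tg_female 5, tg_male 4 or tg_male 5 (adjusted p 0.00646 to 0.0294). It also passed in 4 other settings, DESeq2 and the replicate block among them (adjusted p 0.00275 to 0.0286). In hCYP2B6-Tg livers Acot4 had 0.16 ± 0.17 (adjusted p = 0.620). The cytosolic Acot1 varied widely within groups, from 12.4 to 53.0 CPM among Cyp2b-null females alone, with estimates of -0.42 ± 0.53 and 0.42 ± 0.52. The mitochondrial Acot2 had -0.016 ± 0.33 and 0.45 ± 0.31.

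Bdh1, the ketone body member, interconverts acetoacetate and 3-hydroxybutyrate in mitochondria. Females had 404, 377, 419 and 368 CPM of it with the Cyp2b-null genotype against 367, 422, 465 and 392 CPM with hCYP2B6-Tg. Males had 374, 357, 389 and 320.2 CPM against 368, 375, 377 and 334 CPM in the same order. All 4 groups overlapped, and the female minus male estimates of 0.12 ± 0.08 and 0.18 ± 0.08 did not pass (edgeR adjusted p = 0.459 and 0.200).

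Of the remaining targets, Pdk4, the kinase that turns off pyruvate dehydrogenase when fat is burned, had 18.4, 8.42, 13.6 and 13.0 CPM in Cyp2b-null females against 9.03, 4.68, 6.63 and 5.32 CPM in the males. It had 14.5, 13.4, 10.7 and 12.4 CPM in hCYP2B6-Tg females and 5.96, 5.85, 13.6 and 2.49 CPM in the males. Most females were above most males in both genotypes, but the groups overlapped through null_female 3 and tg_male 4. The estimates of 1.07 ± 0.37 (edgeR adjusted p = 0.104) and 0.85 ± 0.36 (adjusted p = 0.163) did not pass. Without tg_male 4 both did (adjusted p = 0.0066 in Cyp2b-null and 0.00148 in hCYP2B6-Tg livers), and without tg_male 5 Pdk4 passed in Cyp2b-null livers (adjusted p = 0.0225). Pdk4 also passed in 4 other settings in Cyp2b-null livers, DESeq2 among them (adjusted p 0.0104 to 0.0227). In hCYP2B6-Tg livers it passed in 3, limma voom among them (adjusted p 0.000407 to 0.0393). Vnn1, a pantetheinase of the coenzyme A cycle, had -0.22 ± 0.22 and 0.17 ± 0.22 and did not pass, nor did the hormone gene Fgf21, with -0.34 ± 0.46 and -0.091 ± 0.55. Across the 32 members, the sexes did not overlap for 12 in the Cyp2b-null genotype, beside 12.3% of all genes: 2 had the females above (5.66% of all genes) and 10 the males (6.64%). In hCYP2B6-Tg livers they did not overlap for 6, beside 15.6% of all genes: 1 had the females above (7.41%) and 5 the males (8.2%). Estimates were above 0 for 9 members in Cyp2b-null livers (50.7% of all genes) and for 13 in hCYP2B6-Tg livers (52.5%).

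The comparison of hCYP2B6-Tg with Cyp2b-null livers asked whether the human gene goes with a change in fat oxidation transcripts. In females 0 of 32 members passed (edgeR, beside 0% of all genes), in males 0 (beside 0.111%) and for the difference between the sexes 0 (beside 0.0445%). DESeq2 and limma voom also called 0 members in each. At an unadjusted p under 0.05 there were 4 members in females (7.59% of all genes), 0 in males (7.17%) and 2 for the difference (7.7%). A p that misses the threshold does not show that values did not differ. The 95% intervals of the 15 mitochondrial estimates and the 7 peroxisomal ones lay within the range -0.71 to 0.54 in females and -0.51 to 0.59 in males.

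**Figure D4:**
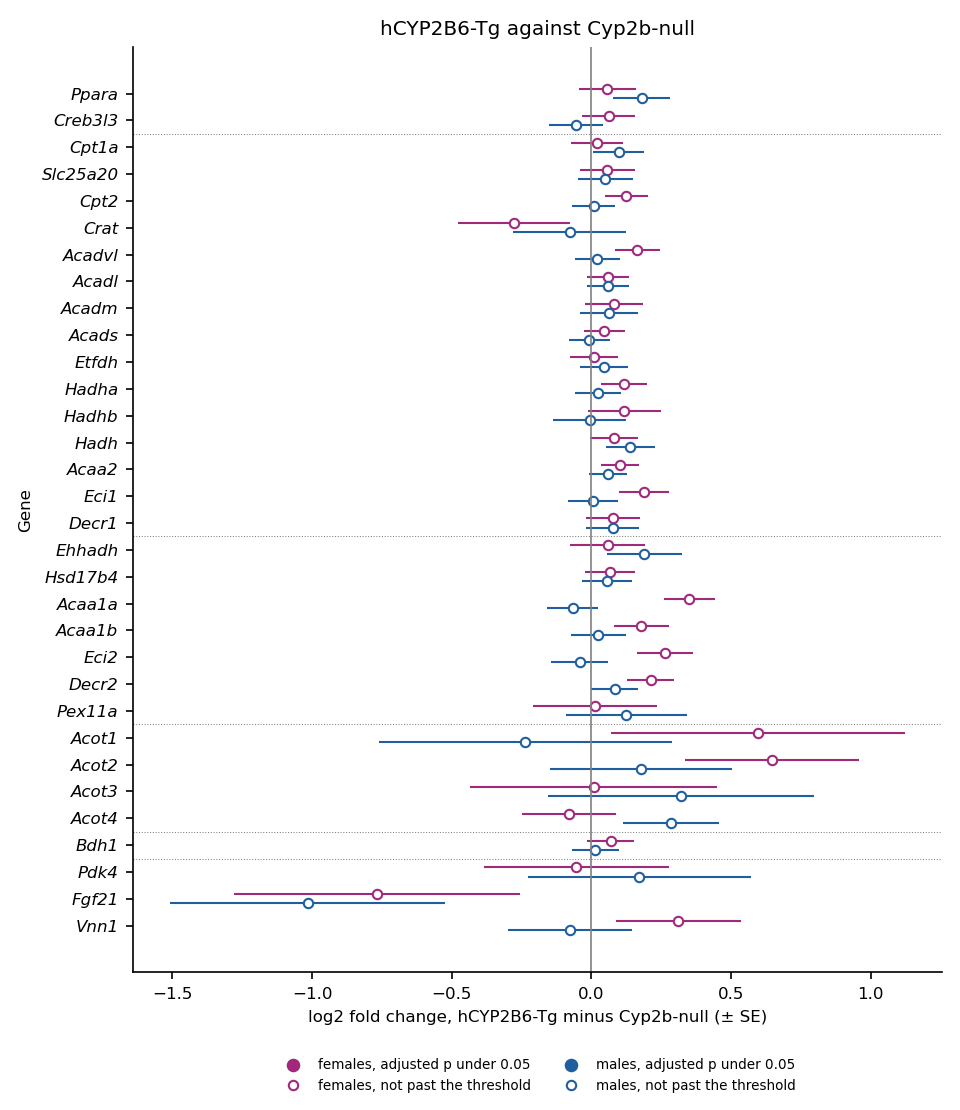
Estimated log2 fold change, hCYP2B6-Tg minus Cyp2b-null, with its standard error for each of the 32 genes in females and males, in order of role. No point is filled because 0 genes passed an edgeR adjusted p of 0.05. Female estimates of the 7 peroxisomal genes other than thioesterases lie right of 0, and Fgf21 lies left at -0.77 in females and -1.02 in males.

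In females 28 of 32 members had an estimate above 0, with a median of 0.074, beside 50.4% of all genes with an estimate above 0. Members vary together between libraries of one group, so this count is a description of 8 libraries. The smallest p in females was that of Acaa1a, with 128, 159, 135 and 128 CPM in Cyp2b-null against 170, 183, 194 and 155 CPM in hCYP2B6-Tg females. The highest Cyp2b-null value exceeded the lowest hCYP2B6-Tg value, and the estimate was 0.35 ± 0.09 (edgeR adjusted p = 0.448). Eci2 had 179, 189, 163 and 139 CPM in Cyp2b-null females against 209, 181, 219 and 195 CPM in hCYP2B6-Tg females (0.26 ± 0.10, adjusted p = 0.574). Decr2 had 264, 309, 243 and 234 CPM and 306, 295, 323 and 292 CPM (0.21 ± 0.09, adjusted p = 0.584). Most hCYP2B6-Tg values of Eci2 and Decr2 were the higher ones, but in both genes the groups overlapped. The 7 peroxisomal estimates other than thioesterases were above 0 in females, with a median of 0.18, and with Acot3 and Acot4 counted in 8 of 9 were, with a median of 0.066. All of them use the same Cyp2b-null female libraries as the sex comparison in that genotype does. The mitochondrial Acadvl was the 1 member whose female groups did not overlap, at 219 to 228 CPM in Cyp2b-null against 231 to 265 CPM in hCYP2B6-Tg livers (0.17 ± 0.08, adjusted p = 0.665). By this measure 3.5% of all genes were apart.

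In males 23 of 32 members had an estimate above 0, with a median of 0.047, beside 49% of all genes. As in females, members vary together, so this count is a description of these libraries. The smallest p was that of Fgf21 (chr7:45613890-45615490), the fasting hormone that the liver secretes under PPARα and CREBH. Its values were 8.13, 4.82, 6.90 and 5.04 CPM in Cyp2b-null males and 3.05, 3.23, 3.60 and 2.26 CPM in hCYP2B6-Tg males. Every hCYP2B6-Tg value was below every Cyp2b-null value, as was so in either direction for 4.77% of all genes, and the estimate was -1.02 ± 0.49 (edgeR adjusted p = 0.707). In females Fgf21 had 13.0, 2.65, 1.96 and 3.54 CPM in Cyp2b-null against 2.02, 2.21, 5.15 and 2.30 CPM in hCYP2B6-Tg livers. The female estimate of -0.77 ± 0.51 (adjusted p = 0.780) rested on null_female 1 and was 0.044 without it. Ppara (0.18 ± 0.10, adjusted p = 0.737) and Acot4 (0.29 ± 0.17, adjusted p = 0.779) came next in males. Acot4 had 59.2, 52.4, 54.5 and 46.9 CPM in Cyp2b-null males and 61.7, 58.2, 92.2 and 47.0 CPM in hCYP2B6-Tg males. The groups of both genes overlapped, and tg_male 4 was the highest for each. Without tg_male 4 these 2 estimates were 0.088 and 0.065, the lowest values with a single library left out.

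For the difference of the genotype effect between the sexes, male minus female, the smallest p values were those of Acaa1a (-0.42 ± 0.13, edgeR adjusted p = 0.388), Eci2 (-0.31 ± 0.14, adjusted p = 0.632) and Acot4 (0.37 ± 0.24, adjusted p = 0.765). Acaa1a means were 138 ± 14.7 CPM in Cyp2b-null females, 175 ± 16.8 in hCYP2B6-Tg females, 205 ± 16.6 in Cyp2b-null males and 196 ± 14.8 CPM in hCYP2B6-Tg males (SD, n = 4). The Cyp2b-null females were the low group, and the other 3 groups lay closer together. Eci2 had the same order at the bottom, with 168 ± 21.6, 201 ± 16.5, 191 ± 19.2 and 186 ± 22.3 CPM in those groups. Its male libraries overlapped, with 172, 190, 218 and 184 CPM in Cyp2b-null livers and 187, 166, 216 and 173 CPM in hCYP2B6-Tg livers. Thus 0 of 32 members showed a genotype effect that differed by sex past the threshold.

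Within each group the members tended to be high or low together, library by library. In hCYP2B6-Tg males, tg_male 4 was the highest of the 4 libraries for 28 of 32 members, or 87.5%, beside 25.6% of all 13470 genes. In the other groups null_male 3 was highest for 20 members (62.5% against 25.9%), null_female 1 for 20 (62.5% against 28.2%) and tg_female 4 for 17 (53.1% against 24.6%). The low libraries were tg_female 5, lowest of its group for 23 members (71.9% against 25.3%), tg_male 5 and null_female 5. Tg_male 5 was lowest for 18 (56.25% against 23.2%) and null_female 5 for 16 (50% against 23.8%). Relative to the other 3 libraries of its group, the median member in tg_male 4 stood 0.32 higher on the log2 scale, and the median of all genes 0.0063 higher. The sex calls that tg_male 4 bears on are given above with and without it. The members vary together within a group, and what drives that variation was not tested, nor are feeding state and hour of collection among the labels.

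**Figure D5:**
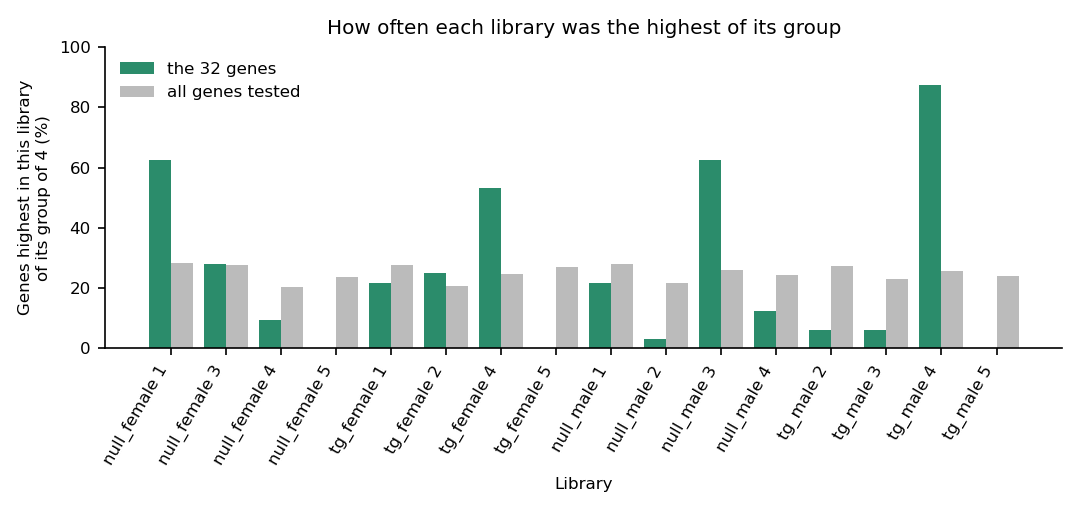
Percent of genes for which each library was the highest of its group of 4, for the 32 genes and for all genes tested. The bars of all genes stay between 20.4% and 28.2%, while those of the 32 genes reach 87.5% in tg_male 4 and 0% in null_female 5, tg_female 5 and tg_male 5.

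Averaged over both genotypes, a contrast added after seeing the data, 11 of 32 members differed by sex (edgeR adjusted p under 0.05), beside 17% of all genes. The 3 higher in females (8.34% of all genes) were Acot3 (1.87 ± 0.33), Ehhadh (0.38 ± 0.10, adjusted p = 0.00867) and Pdk4 (0.96 ± 0.26, adjusted p = 0.0178). The 8 lower in females (8.64%) were Ppara, Cpt1a, Acads, Acaa2, Hsd17b4, Acaa1a, Acaa1b and Pex11a, with Acaa1b at -0.71 ± 0.07 (adjusted p = 5.31e-08). The peroxisomal bifunctional enzyme genes thus had opposite signs, Hsd17b4 at -0.37 and Ehhadh at 0.38. The averaged contrast uses the same libraries as the comparisons within each genotype and is no separate support for them.

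Averaged over both sexes, 0 of 32 members passed by genotype (edgeR), beside 0.0148% of all genes, with 3 at an unadjusted p under 0.05, beside 6.94%. Estimates were above 0 for 30 of 32, beside 50.1% of all genes, with a median of 0.074 on the log2 scale. Members vary together between libraries of one group, so this count too is a description of these libraries. Fgf21 was the lowest at -0.89 ± 0.36 (adjusted p = 0.636).

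Pathway genes outside the 32, listed by textbook role, numbered 129, of which 128 were in the table and 120 were tested. By genotype 0 of 120 passed in either sex or for the difference (edgeR). By sex, 7 were higher and 21 lower in Cyp2b-null females, and 11 were higher and 28 lower in hCYP2B6-Tg females. Of all genes tested, 3.57% were higher and 3.95% lower in Cyp2b-null females, and 4.69% higher and 5.56% lower in hCYP2B6-Tg females, which are also the shares to set beside each list that follows. In the list of peroxisomal oxidation and biogenesis, 2 of 37 were higher and 7 lower in Cyp2b-null females, and 3 higher and 10 lower in hCYP2B6-Tg females. Scp2, whose product includes a peroxisomal thiolase for branched chains, had 1589 ± 165 CPM in Cyp2b-null females against 3627 ± 257 CPM in the males (log2 fold change -1.19 ± 0.08, edgeR adjusted p = 3.8e-10). In hCYP2B6-Tg livers the Scp2 log2 fold change was -1.28 ± 0.08 (adjusted p = 7.48e-11). Phyh, the phytanoyl-CoA hydroxylase of peroxisomal α-oxidation, had -0.71 ± 0.07 and -0.60 ± 0.07 (adjusted p = 1.56e-07 and 2.04e-06). Abcd2, a transporter that brings very-long-chain acyl-CoA into peroxisomes, was higher in females, with 1.31 ± 0.14 in Cyp2b-null livers (148 ± 21.1 against 59.8 ± 12.2 CPM, adjusted p = 2.58e-06).

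In the list of mitochondrial β-oxidation, 1 of 20 was higher and 3 lower in Cyp2b-null females, and 1 higher and 4 lower in hCYP2B6-Tg females. Hsd17b10, a mitochondrial 3-hydroxyacyl-CoA dehydrogenase, had 107 ± 9.64 CPM in Cyp2b-null females against 181 ± 10.7 CPM in the males (log2 fold change -0.76 ± 0.09, edgeR adjusted p = 1.01e-06, and -0.81 ± 0.08 in hCYP2B6-Tg livers). Of the 6 tested genes for mitochondrial entry and carnitine, 0 passed in Cyp2b-null and 2 were lower in hCYP2B6-Tg females. Of the 9 tested genes of ketone body synthesis and use, 2 were higher and 2 lower in Cyp2b-null females, and 1 higher and 3 lower in hCYP2B6-Tg females. Among 28 other PPARα targets, 0 were higher and 7 lower in Cyp2b-null females, and 4 higher and 9 lower in hCYP2B6-Tg females. Of these, Cidec, a lipid droplet protein, had 1.85 ± 0.685 CPM in hCYP2B6-Tg females and 16.8 ± 8.46 CPM in the males (-3.15 ± 0.35, edgeR adjusted p = 5.94e-06). Among 24 receptor partners and coregulators, 2 were higher and 3 lower in Cyp2b-null females and 2 higher and 2 lower in hCYP2B6-Tg females.

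By genotype in males, the pathway gene with the smallest p was the corepressor gene Nr0b2, with 59.6 ± 19.3 CPM in Cyp2b-null against 25.4 ± 8.48 CPM in hCYP2B6-Tg livers (-1.22 ± 0.27, edgeR adjusted p = 0.180), which did not pass.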

How the data were processed

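Liver RNA of 16 mouse libraries (4 groups of 4) was sequenced. Per the labels' protocols, Trizol was used for extraction and the NEB Next Ultra kit for library preparation. The deposited values are raw counts per gene, made by the authors. Trimmomatic, FastQC, Subread, GSNAP, edgeR and the build GRCm38.p6 are named, without tool versions, per the submitters' processing notes. Not given in the sources used here are how strand was set and how reads with several matches were handled. The table also holds 3 empty columns, which were left out.

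Counts were tested in R 4.3.3 with edgeR 4.0.16: filterByExpr left 13470 genes, libraries were scaled by TMM, and 1 model of 4 groups was fitted by robust quasi-likelihood over all libraries. P-values were adjusted by Benjamini-Hochberg over all 13470 genes, with a threshold of 0.05. The standard error of a fold change was derived from its F statistic. CPM are counts relative to the TMM-scaled library total, and RPKM are CPM per kilobase of exon. The 5 comparisons were genotype within each sex, the difference of these, and sex within each genotype.

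The members, pathway lists and cell markers (hepatocyte, Kupffer cell, endothelial, stellate, bile duct, fat cell, muscle, pancreas) were chosen with earlier results of these data known. Every library's value is given for members past the threshold, and for the 3 with the smallest p where fewer than 3 passed. Further members are described as well. From the pathway lists, up to 4 genes with the smallest adjusted p are named per comparison, or 1 where none passed. Where a comparison has none named, what the rule selects is not reported here. Dixon's ratio marked libraries far from their group. The fit was tested on simulated data, with changes given to genes drawn from all those tested. For genotype in males, it called 8%, 24%, 68% and 91.8% of changes of 0.3, 0.5, 1 and 2 on the log2 scale. For sex in Cyp2b-null livers the shares were 6.25%, 26%, 76.6% and 90%. Replicates differed beyond sampling noise in all 24 pairs (chi-square per degree of freedom 6.53 to 19.7), so none was counted as a repeat. Alternatives were each library left out, other scalings and filters, DESeq2 1.42.0, limma voom (limma 3.58.1), a fit of only the groups compared and a replicate block. A further 3 alternatives and the contrasts averaged over genotype or sex were added after seeing the data.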

Additional observations from a re-analysis of the deposited data

Results flagged for a closer look

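Of 128 groups of 4 values (32 genes in 4 groups), 11 had 1 library far from the other 3, with a gap to the nearest of them above Dixon's 95% critical share of the group's range. Chance flags about 1 in 20 groups, or 6.4 of 128. Fgf21 was high in null_female 1 at 13.0 CPM and in tg_female 4 at 5.15 CPM. Acot1 was high in null_male 3 at 46.5 CPM and in tg_male 4 at 48.1 CPM. Tg_male 4 was also high for Hadh at 557 CPM and Hadhb at 33.9 CPM. Creb3l3 was high in null_male 3 at 313 CPM and low in tg_male 3 at 245 CPM. Decr1 was high in null_female 1 at 259 CPM. Low values were those of Cpt1a in null_female 5 at 396 CPM and Vnn1 in tg_female 5 at 105 CPM.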

How the results depend on the processing

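With each of 16 libraries left out and in 13 other settings, 0 of 32 members passed by genotype in either sex. The same held for the difference, for which 12 other settings were run, since a fit of 2 groups cannot give it. Members differing by sex in Cyp2b-null livers numbered 5, and 4 to 9 as each library was left out (749 to 1046 of all genes). They numbered 10 with DESeq2, 8 when only the 2 groups were fitted and 9 without tg_male 4 and null_female 1, where 1157, 826 and 1014 of all genes passed, against 1013. In hCYP2B6-Tg livers 7 passed, and 3 to 7 as each library was left out (981 to 1475 of all genes). When low counts were not filtered, 4 passed (1209 of all genes, against 1381). The Fgf21 genotype estimate in females was -0.77, ran from -1.14 to 0.044 as each library was left out, and turned in sign to 0.044 without null_female 1, to 0.048 without null_female 1 and tg_male 4, and to 0.031 without null_female 1, null_female 3 and tg_male 4. These rest on fewer samples; for the other changes the cause was not tested.

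Over all genes, same-numbered libraries of 2 groups did not vary together throughout (correlations of -0.107 to 0.122). The numbers are therefore not taken as pairs. Among the members, null_female 5, tg_female 5 and tg_male 5 share a number and were lowest of their groups for 50%, 71.9% and 56.25%. Tg_female 4 and tg_male 4 were highest for 53.1% and 87.5%, but null_female 4 and null_male 4 for 9.375% and 12.5%. What the numbers stand for is not given, and their part in these levels was not tested. With a replicate block, 7 members passed by sex in Cyp2b-null and 6 in hCYP2B6-Tg livers (941 and 1227 of all genes, against 1013 and 1381). By genotype 0 members passed with the block in females, 0 in males and 0 for the difference (2, 5 and 9 of all genes). Without the block, calls over all genes by genotype in males numbered 15, and 2 to 24 as each library was left out. They numbered 47 with DESeq2. For the difference they numbered 6, from 0 to 12 as each library was left out and 16 with DESeq2. In females they numbered 0, from 0 to 1 as each library was left out and 12 with DESeq2. Scaled by library totals without TMM, 25% of the genes called by genotype in males were higher in hCYP2B6-Tg, against 46.7%. With 4 libraries a group and at most 9672708 counts in one, small differences may pass undetected.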
